A study of Drosophila melanogaster with 4 samples.

Results

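The regions described here are clusters of H3K79me2, dimethylation of lysine 79 of histone H3, at the places where the euchromatic arms of the large autosomes of Drosophila melanogaster pass into heterochromatin. They were taken by position alone, as every enriched cluster with at least 1 base in the last 3 Mb of 2L, the last 3 Mb of 3L or the first 3 Mb of 3R, and every cluster on the assembled heterochromatic pieces 2LHet, 3LHet and 3RHet and on chromosome 4. Replicate 1 had 399 such clusters of 6376 in all, replicate 2 had 538 of 10183, and the authors' combined list had 544 of 9950. The material was nuclei from heads of adult flies of the wild-type strain Oregon-R at a mixed adult stage. The sexes were not given. The mark was mapped with the Abcam antibody ab3594 by ChIP-seq, in which DNA bound to a marked histone is precipitated and sequenced, in 2 ChIP libraries, with 1 matched input library for each. All libraries share strain, genotype and tissue, so the study holds no contrast of treatments, and the comparisons below are between places on the chromosomes. A head holds many cell types, and few marked nuclei cannot be told apart from little mark in each nucleus.

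H3K79me2 is placed by the methyltransferase Dot1, which flies call grappa, and lies over the bodies of transcribed genes. Pericentric heterochromatin is instead rich in repeats and transposons and carries methylated lysine 9 of histone H3 and its binding protein HP1a. It is poor in genes but not free of them: in flies some genes, such as light near the centromere of 2L, lie in heterochromatin and need it for normal expression. Chromosome 4 is an exception of another kind, a small chromosome whose genes are transcribed within chromatin that holds HP1a and the protein POF.

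The 3 arm ends did not behave alike. On 2L and 3L, cluster coverage fell to a few percent or less well before the assembled sequence ended, whereas 3R was marked up to its first steps. Distances are counted from the centromeric end of the assembled arm, not from the centromere itself, since the heterochromatic pieces continue the arms toward it. In the 1 Mb nearest that end, replicate 1 covered 3.99% of 2L, 0.96% of 3L and 22.7% of 3R. Replicate 2 covered 2.31%, 0% and 26.8% in the same order. Between 1 and 2 Mb the covered share was 15.4% ± 3.96 on 2L, 8.96% ± 0.67 on 3L and 44.1% ± 3.91 on 3R (SD, n = 2). Between 2 and 3 Mb it was 25.7% ± 0.29 on 2L, 39.9% ± 7.44 on 3L and 19.2% ± 0.65 on 3R. Beyond 3 Mb the arms were covered to 27.4% ± 0.43, 30.0% ± 1.17 and 31.5% ± 3.37 in the same order. Taken within each replicate, the innermost 1 Mb minus the rest of the arm was -24.2 ± 1.62 percentage points on 2L, -29.5 ± 1.85 on 3L and -6.79 ± 0.51 on 3R (SD, n = 2). The innermost 1 Mb was thus lower on all 3 arms by more than the replicates differed, with the smallest difference on 3R. This spread is between libraries and does not measure variation along an arm. On 3R the band from 2 to 3 Mb was lower still, at 19.2% against 24.7% in the innermost 1 Mb. With 2 libraries an exact paired permutation test cannot go below a two-sided p of 0.5, so no p is given.

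The place of the fall was set by a rule. Walking outward from the centromeric end in steps of 100 kb, it is the near edge of the first step at which that step and the 4 after it together reach 50% of the coverage of the arm beyond 3 Mb. On 2L this was 1.3 Mb from the end in replicate 1 and 1.5 Mb in replicate 2 (1.4 Mb ± 0.14, SD, n = 2). On 3L it was 1.4 Mb in both. On 3R it was 0 Mb in both, so by this rule 3R showed no fall. Of the 3 arm ends, only 2L and 3L are therefore described with a fall. A step in coverage at 1.0 Mb on 3R, which the rule does not pick up, is given below. The telomeric ends of 2L, 3L and 3R also gave 0 Mb in both replicates. The centromeric ends of 2R and X gave 1.4 Mb and 0.8 Mb, again the same in both. Since the rule averages 500 kb ahead, it comes before the steepest point.

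**Figure D1:**
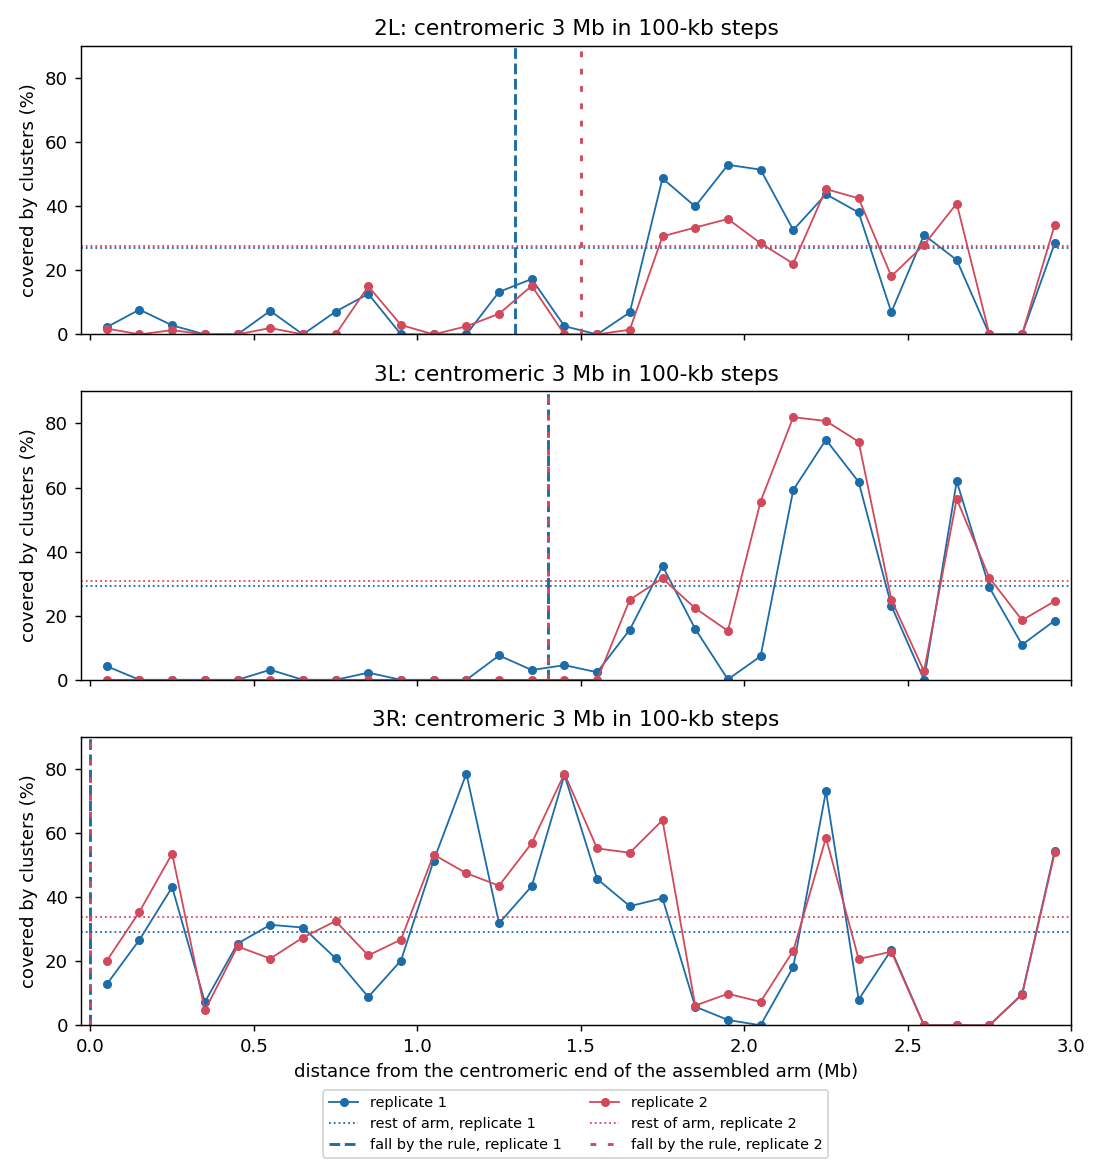
Share of each 100-kb step covered by clusters (y axis, %) against distance from the centromeric end of the arm (x axis, Mb) on 2L, 3L and 3R, with points for replicate 1 (blue) and replicate 2 (red), dotted lines for the share of the arm beyond 3 Mb and dashed lines for the fall. Coverage rises at 1.7 Mb on 2L and from 1.6 Mb on 3L, and 3R is marked from its first step on.

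Single steps placed the edge more closely. On 2L no step within 1.7 Mb of the end was covered to more than 17.3% in replicate 1 or 15.2% in replicate 2. The step from 1.6 to 1.7 Mb was covered to 6.86% and 1.47%, and the next, from 21211545 to 21311544 on 2L, to 48.7% and 30.6%. Both replicates thus changed level between the same pair of steps, and the following 6 steps stayed at 22.1% or above in both. The edge with the largest difference between the 500 kb on either side was at 1.7 Mb in each replicate and in the combined list. Coverage across it went from 8.00% to 45.1% in replicate 1 and from 4.61% to 30.1% in replicate 2. This edge was picked as the largest of 21 in the window. Beyond the 3 Mb, differences as large, in either direction, were found at 1 of 191 edges in replicate 1 and 12 of 191 in replicate 2, the largest of 40.2 and 35.3 percentage points, so edges of this size were also found elsewhere on the arm.

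On 3L the rise came in 2 stages. Within 1.6 Mb of the end the steps of replicate 1 were covered to between 0% and 7.60%, and replicate 2 held no cluster at all. The step from 1.6 to 1.7 Mb was covered to 15.7% and 25.0% and the next to 35.6% and 31.7%. Coverage then dropped again, to 0.15% and 15.3% between 1.9 and 2.0 Mb. The following step, from 22443558 to 22543557 on 3L, was the point where the replicates differed most within the last 3 Mb of this arm, at 7.35% in replicate 1 and 55.6% in replicate 2. From 2.1 to 2.4 Mb both were high, with 59.3%, 74.9% and 61.8% in replicate 1 and 82.0%, 80.8% and 74.3% in replicate 2. The steepest edge was accordingly at 2.0 Mb in replicate 1 and 1.9 Mb in replicate 2, outside the first marked block. It was a difference of 31.4 percentage points in replicate 1, reached by 7 of 206 edges elsewhere on the arm, and of 45.8 in replicate 2, reached by 0 of 206.

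A fall placed in one replicate was read in the other, which had no part in placing it. On 2L, the sequence inside the fall of replicate 1 was covered to 2.46% in replicate 2, and the sequence from there to 3 Mb to 22.1%. Inside the fall of replicate 2, replicate 1 covered 4.87%, and from there to 3 Mb 26.9%. On 3L, replicate 2 covered 0% inside the fall of replicate 1 and 34.1% from there to 3 Mb, and replicate 1 covered 1.45% and 26.3% around that of replicate 2. The rest of 2L was covered to 27.1% in replicate 1 and 27.7% in replicate 2, and the rest of 3L to 29.2% and 30.8%. From the fall of replicate 1 to 3 Mb, replicate 2 came to 0.80 times the level of the rest of the arm on 2L and 1.11 times on 3L. Replicate 1, whose own coverage placed this zone, came to 0.92 and 0.90 times. The zone averages nearly bare steps with well covered ones, so these ratios do not describe single steps.

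Stretches of the same length elsewhere on these 2 arms were covered more. Since low coverage placed the fall, each replicate was again read with the length given by the other. On 2L, 188 windows of 1.3 Mb, slid in steps of 100 kb over the arm beyond 3 Mb, were covered to at least 11.7% in replicate 2, against 2.46% at the centromeric end. In replicate 1, 186 windows of 1.5 Mb were covered to at least 10.4%, against 4.87%. On 3L, 202 windows of 1.4 Mb were covered to at least 16.1% in replicate 1 and 17.1% in replicate 2, against 1.45% and 0%. The windows overlap, so their number is no measure of chance. How much of the centromeric sequence allows reads to be placed uniquely was not tested, so a bare stretch is one without calls and need not lack the mark.

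Steps of 100 kb without a cluster in either replicate numbered 19 of 90 in the 3 arm ends (21.1%). The background was 4.71% over all 1189 steps of X, 2L, 2R, 3L and 3R, and 2.86% over the 664 steps of 2L, 3L and 3R beyond 3 Mb. They were unevenly spread, with 9 on 3L, 7 on 2L and 3 on 3R. Low coverage of these same steps placed the fall, so how the empty ones lie around it is given as a description. On 3L all 9 lay among the 14 steps inside the fall. On 2L, 4 lay among the 13 steps inside it. Another, from 1.5 to 1.6 Mb, lay outside the fall of replicate 1 but within the low stretch that ends at 1.7 Mb. The remaining 2 formed a gap from 2.7 to 2.9 Mb, with marked steps on both sides. The 3 on 3R, from 2.5 to 2.8 Mb, also lay among marked steps, far from the centromeric end. The longest stretch free of clusters in both replicates was 260.7 kb on 2L, from 22474325 to 22734991, which began 277 kb from the end of the arm. On 3L it was 505.5 kb and began 13.1 kb from the end. On 3R it was 404 kb, longer than on 2L, and began 2.49 Mb from the end, far from the centromere on the arm without a fall.

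A few clusters were called inside the fall. The zone is that set by replicate 1, so low numbers in replicate 1 follow from the rule and are given as a description. On 2L, replicate 1 held 19 clusters in the innermost 1.3 Mb, which is 14.6 per Mb against 52.0 on the rest of the arm, and replicate 2 held 14, or 10.8 per Mb against 83.7. Their median width was 2474 bp and 2177.5 bp, against 3364.5 bp and 2289.5 bp on the rest of the arm, and the widest were 8134 bp and 3078 bp. The median width in replicate 2 was thus close to that of the rest of the arm. No cluster of 10 kb or more lay there. On the rest of 2L such clusters made up 11.1% of 1040 in replicate 1 and 3.23% of 1674 in replicate 2, shares too small for their absence among 19 and 14 clusters to show a difference. On 3L, replicate 1 held 6 clusters in the innermost 1.4 Mb, between 2.24 and 5.33 kb wide, and replicate 2 none. One of these 6 was at the very end of the arm, from 24530416 to 24534668, 8.89 kb from the last base. The combined list kept 1 cluster inside the fall of 3L, of 2.14 kb, from 23328771 to 23330913.

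Some of the islands on 2L were found in both replicates. Of the 19 clusters of replicate 1, 7 had at least 1 base in replicate 2 (36.8%), against 87.8% of the whole list of replicate 1. Of the 14 of replicate 2, 7 had a base in replicate 1 (50.0%), against 65.9% of its whole list. Sparse calls in one list also leave less to meet in the other, so these shares are given as a description. The islands in both included 3 combined clusters nearest to the end, from 22427628 to 22429812, 582 kb from the end, from 22165876 to 22169004 and from 22153933 to 22156218. Each was covered to at least 91.0% in both replicates and matched 1 cluster in each. The latter pair belonged to a group about 855 kb from the end, where the step from 0.8 to 0.9 Mb reached 12.6% in replicate 1 and 15.0% in replicate 2. By the authors' score, ranked within each list, the 7 met islands had a median percentile of 59.5 in replicate 1 and 67.8 in replicate 2, and the unmet ones of 33.7 and 23.5. The 6 clusters of replicate 1 on 3L, with no partner, had a median percentile of 26.0.

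**Figure D2:**
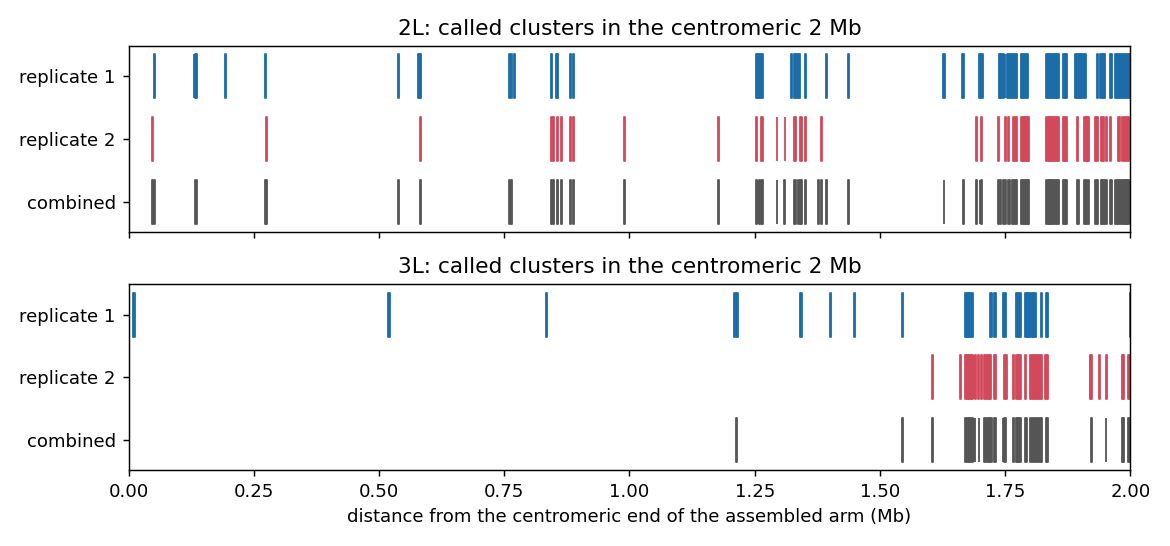
Clusters of replicate 1 (blue), replicate 2 (red) and the combined list (grey) as bars to scale along the centromeric 2 Mb of 2L and 3L (x axis, distance from the centromeric end, Mb). Between 0.8 and 0.9 Mb on 2L each list holds islands, some of them at the same places in all 3, while those of 3L inside 1.4 Mb are calls of replicate 1, of which the combined list kept 1.

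From the fall of replicate 1 to 3 Mb, taken whole, the clusters were somewhat sparser than on the rest of their arm. On 2L there were 44.7 per Mb in replicate 1 and 71.2 in replicate 2, against 52.0 and 83.7 on the rest, and on 3L 41.9 and 83.1, against 52.5 and 89.6. This zone begins before the rise in coverage, so it takes in nearly bare steps. On 2L no step from 1.4 to 1.7 Mb was covered to more than 6.86% in replicate 1 or 1.47% in replicate 2. On 3L replicate 2 held no cluster from 1.4 to 1.6 Mb. Density beyond the rise alone was not computed, so these values do not show sparser clusters there. From the fall to 3 Mb, 88.2% of the 76 clusters of replicate 1 on 2L and 92.5% of the 67 on 3L were met in replicate 2, beside 85.0% and 89.7% on the rest of these arms. For replicate 2 the shares were 75.2% of 121 and 59.4% of 133, beside 64.7% and 68.8%. The covered length shared by the replicates was 51.3% of that covered in either on 2L and 57.4% on 3L, beside 50.6% and 55.3% on the rest. On the centromeric side it was 24.3% on 2L and 0% on 3L.

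**Figure D3:**
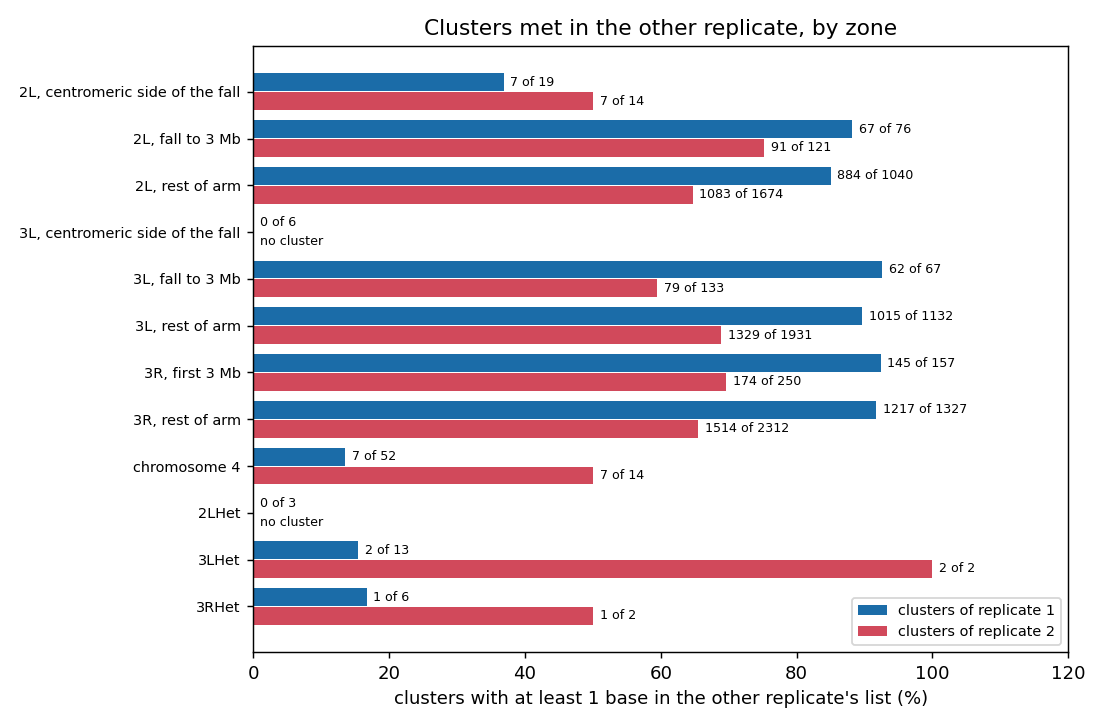
Share of clusters with at least 1 base in the other replicate's list (x axis, %), by zone, for clusters of replicate 1 (blue) and replicate 2 (red), with the counts printed at the bars. Zones outside the fall sit at 59.4% to 92.5%, and the centromeric sides of 2L and 3L at 0% to 50.0%.

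The widest domain of the 3 arm ends lay on 3L, outside the first marked block and the dip that follows it. In replicate 1 it was a single cluster of 99.7 kb, from 22301382 to 22401128, which began 2.14 Mb from the end of the arm. Replicate 2 covered 94.2% of it with 9 clusters. The combined list divided it into 2 of its widest clusters here, 42.0 kb from 22359457 to 22401485 and 41.7 kb from 22317678 to 22359405, each covered to at least 93.8% in both replicates. The third widest on 3L that both replicates covered by at least 50% was 26.1 kb, from 21884518 to 21910635. On 2L the widest such clusters were only 15.2 kb, 15.1 kb and 13.7 kb. They lay from 21153924 to 21169136, from 20997662 to 21012728 and from 20900149 to 20913804, that is between 1.84 and 2.10 Mb from the end. On 3R they were 20.2 kb, 19.6 kb and 19.1 kb wide and lay between 1.28 and 1.61 Mb from the end. Steps covered by at least 50% in both replicates numbered 8 of 90 (8.89%), 4 on 3L, 4 on 3R and 0 on 2L, near the 10.7% of all 1189 steps. Taken whole, these arm ends thus held dense steps about as often as the large arms, whose steps include them. The dense steps were not spread over the whole 3 Mb. The innermost began 2.1 Mb from the end on 3L and 1 Mb from the end on 3R.

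The right arm of chromosome 3 was marked from its start. Its first step was covered to 12.8% in replicate 1 and 20.1% in replicate 2, the second to 26.7% and 35.4% and the third to 43.1% and 53.6%. The combined clusters nearest to the end that both replicates held ran from 45993 to 52660, from 52915 to 55396 and from 55967 to 61303. The last of them ranked at percentile 97.6 of the combined list by score. The edge with the largest difference between the 500 kb on either side was at 1.0 Mb in each replicate and in the combined list. Across it, going outward, coverage went from 22.4% to 56.7% in replicate 1 and from 25.8% to 55.9% in replicate 2. Differences as large, in either direction, were found beyond 3 Mb at 7 of 240 edges in replicate 1 and 5 of 240 in replicate 2. Coverage was highest between 1.0 and 1.8 Mb, where the steps ran from 31.8% to 78.5% in replicate 1 and from 43.5% to 78.5% in replicate 2. It then fell, going outward, to 5.82% and 6.16% between 1.8 and 1.9 Mb. The lowest coverage on this arm end, 0% in both replicates from 2.5 to 2.8 Mb, lay far from the centromere. A low step was also found nearer to it, from 0.3 to 0.4 Mb, at 7.2% in replicate 1 and 4.6% in replicate 2. Of 157 clusters of replicate 1 in these 3 Mb, 92.4% were met in replicate 2, beside 91.7% on the rest of 3R, and the shared length was 58.1% of that covered in either, beside 56.0%.

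The heterochromatic pieces, which continue the arms toward the centromere in separate assembled sequences, held few clusters. Over the 5.44 Mb of 2LHet, 3LHet and 3RHet, replicate 1 held 22 clusters that covered 47.5 kb (0.87%) and replicate 2 held 4 that covered 9.09 kb (0.17%). Of the 9 combined clusters on these pieces, 3 had bases in both replicates, beside 55.5% of the whole combined list. A pair of them lay close together on 3LHet, from 700810 to 703378 and from 707887 to 710381, and the third on 3RHet, from 1934681 to 1936950. They were covered to between 83.0% and 97.6% in replicate 1 and to at least 95.9% in replicate 2. The pair on 3LHet also held the 2 widest clusters of replicate 2 on these pieces, of 2.64 and 2.60 kb. In replicate 2 they ranked at percentiles 75.0 and 77.2 by score, in the upper part of the list. In replicate 1 the same places ranked at percentiles 14.7 and 2.45, near the bottom. In replicate 1, 18 of the 22 clusters ranked in the lowest 25% of the list and 0 in the highest 25%. The widest there were 5.07 kb on 2LHet, from 26518 to 31589, and 3.64 kb on 3RHet, from 1820366 to 1824009, neither with a base in replicate 2. On 2LHet replicate 2 held no cluster.

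On chromosome 4 the 2 replicates gave different pictures. Replicate 1 held 52 clusters over 12.6% of the chromosome and replicate 2 held 14 over 2.36%, and their mean describes neither. In replicate 1 the 13 full steps of 100 kb were covered to between 3.65% and 24.4%, highest from 500001 to 700000. In replicate 2 the first 4 steps were empty, and the highest full step, from 1000001 to 1100000, reached 7.45%. The short last step, of 51.9 kb, was covered to 11.8% in replicate 2 and to 0% in replicate 1. Replicate 1 thus covered more in every full step, and replicate 2 in the short last one. No gradual decline toward the first base, the centromeric side of this chromosome, was seen in replicate 1, whose first 2 steps were covered to 14.9% and 18.6%.

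The calls that both replicates made on chromosome 4 lay away from its ends. Of the 36 combined clusters, 7 had bases in both replicates, beside 55.5% of the whole combined list and 81 of 138 on the last 3 Mb of 2L, 59 of 118 on those of 3L and 141 of 243 on 3R. All 7 were covered by at least 50% in both. The widest were 4.47 kb from 623119 to 627591, 3.70 kb from 676185 to 679884 and 3.55 kb from 1048694 to 1052246. The nearest to the first base were those from 500939 to 503137 and from 589790 to 591897. The cluster from 676185 to 679884 ranked at percentile 94.6 of the combined list and was covered to 100% in replicate 1 and 91.8% in replicate 2. A high rank in the combined list did not require a call in a replicate. Combined clusters from 101537 to 102579 and from 615362 to 616461 ranked higher, at 96.7, with no base in either replicate. Of the 52 clusters of replicate 1, 7 were met in replicate 2 (13.5%, beside 87.8% of its whole list), and of the 14 of replicate 2, 7 were met in replicate 1 (50.0%, beside 65.9%). Their median score percentile was 60.2, and that of the 45 unmet ones 26.0. In replicate 2 the order was not the same, at 17.3 for the 7 met and 22.3 for the 7 unmet clusters. The longest stretch free in both was 87.2 kb, from 1238357 to 1325595.

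**Figure D4:**
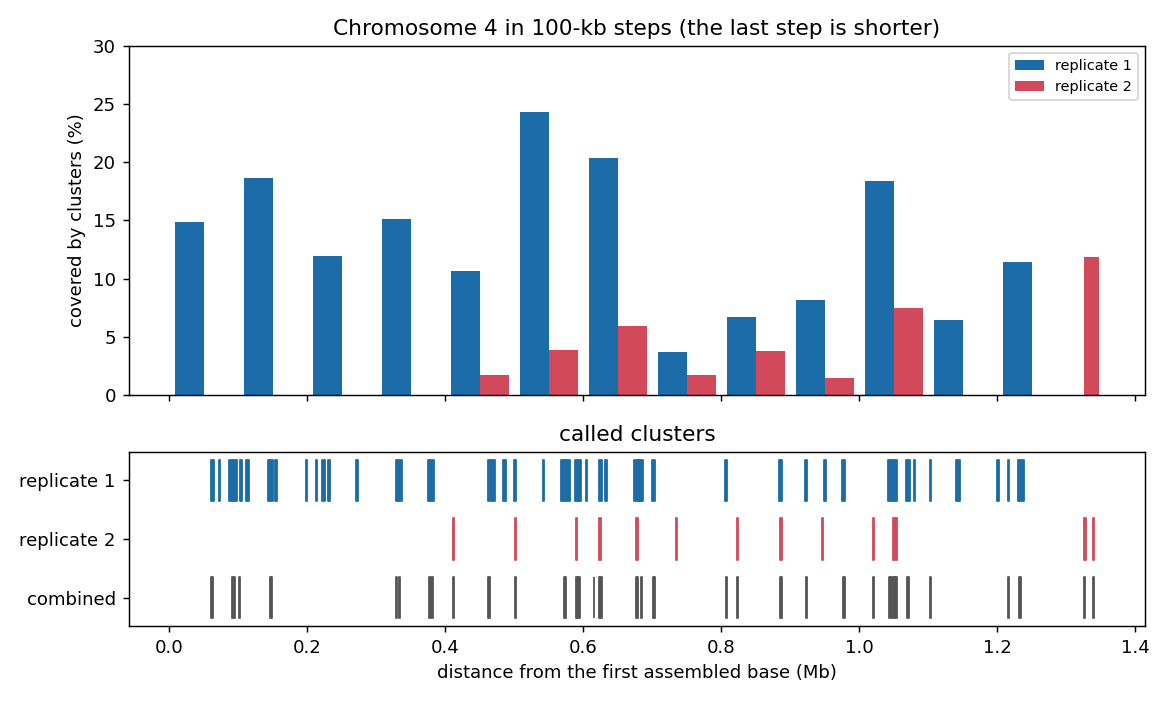
Share of each 100-kb step of chromosome 4 covered by clusters (upper panel, y axis, %) in replicate 1 (blue) and replicate 2 (red), and the called clusters of each list (lower panel), against distance from the first assembled base (Mb). Replicate 1 is higher in all 13 full steps and replicate 2 in the short last one, at 11.8%.

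The difference between the replicates changed direction across these sequences. Replicate 1 covered 5.22 times the length that replicate 2 covered on the heterochromatic pieces, 5.35 times on chromosome 4 and 1.66 times inside the fall of 2L. On 3L inside the fall it covered 20.3 kb and replicate 2 none. Outside the fall the ratio was 1.13 on 2L and 0.77 on 3L, and over the first 3 Mb of 3R it was 0.89. On the rest of the 3 arms it was between 0.86 and 0.98. Sequencing depth and input values were not analysed here, and their part in this difference was not tested. Step by step, the replicates followed each other on the arm ends, with Pearson's r of 0.90 on 2L, 0.92 on 3L and 0.90 on 3R over 30 steps each (Spearman's rho 0.84, 0.83 and 0.93). Over the 14 steps of chromosome 4 r was -0.14 and rho was -0.018. The short last step, at 0% in replicate 1 and 11.8% in replicate 2, counted there as much as a full one. Coefficients over the full steps alone were not computed, so these values do not show that the replicates were unrelated on chromosome 4. These correlations are descriptions across neighbouring steps of 2 libraries, all of which share the sequence of the steps.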

How the data were processed

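The submitters' processing notes name Bowtie 0.12.7 for alignment, and the file headers name FlyBase release 5 as the build. For each of the 2 ChIP replicates the authors deposited a list of called regions, and for the series a combined one, with first and last base and a score per region. What called the regions, with which thresholds and use of input, and the scale of the score, is not given in the sources used here. Score values of the deposited lists were used only as ranks within a list. Percentiles give the share of the list with a lower score. No read counts were analysed, so depth is unknown.

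Only regions called enriched were taken as clusters. Covered shares were computed base by base, with lengths from the file headers, in steps of 100 kb counted from the centromeric end, and are given per replicate or as mean ± SD (n = 2). No test was made, since 2 libraries allow none that could pass 0.05. The labels do not say that the replicates were separate collections, so their spread may be technical. Regions named were, for each arm end and chromosome 4, the 3 widest combined clusters covered by at least 50% in both replicates, the 3 nearest the centromeric end with a base in both and the longest free stretch, and on the heterochromatic pieces those in both and the 2 widest of each replicate. Single steps, dense steps, the steepest edge, the sliding windows and further clusters were chosen after their values were seen. The regions and rules were chosen with earlier results of these data known. The gene table used was of release 6, so genes and sequences are not given. Alternatives are listed in the closing section. Python 3.11.15, numpy 2.4.6, pandas 2.3.3, scipy 1.17.1 and matplotlib 3.10.9 were used.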

Additional observations from a re-analysis of the deposited data

Results flagged for a closer look

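Regions called depleted lie outside the comparisons above. Of the 92 in replicate 2, 10 lay in the sequences described here, 5 on the first 3 Mb of 3R, 4 on the last 3 Mb of 2L, 1 on chromosome 4 and 0 on 3L or the heterochromatic pieces. They are listed since they are a signal outside the main measurement. The number itself does not stand out: it was 10.9% of the 92, and the 3 arm ends and chromosome 4 make up 8.60% of the length of the 6 main arms. Replicate 1 had 0 here, but also 0 in its whole list, and the combined list had 2 of its 11. Enriched clusters of replicate 1 covered 6 of the 10 by 91.0% to 100%. These included 2 inside the fall of 2L, from 22246499 to 22247945 and from 22959472 to 22961198, and the one on chromosome 4, from 463085 to 464895, so the replicates made opposite calls there. How many of all 92 were covered in this way was not counted, so this describes these places only. No cause was tested.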

How the results depend on the processing

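Of 96 recomputed values, 59 stayed within 1 SD between the replicates, or within 1.5 times for counts, and 37 moved. Among the latter are the 8 shared parts of the covered length, which have no replicate error, so that any change, however small, was taken as a move. The same holds for the fall of 3L, which was equal in both replicates and so had an SD of 0. The fall of 3R stayed at 0 Mb under all 9 alternatives. That of 2L moved from 1.4 Mb to 1.25 Mb with 25% in place of 50%, 1.575 Mb with 50-kb steps, 1.1 Mb with 200-kb steps and 1.55 Mb with 2 steps averaged after the first in place of 4. That of 3L, also at 1.4 Mb, moved to 1.3, 1.525, 1.2 and 1.5 Mb in the same order, to 1.65 Mb with clusters at or above the median score and to 1.5 Mb in the combined list. With clusters at or above the median score, fewer by construction, the covered share of 2L and 3L pooled went from 1.82%, 12.2% and 32.8% at 0 to 1, 1 to 2 and 2 to 3 Mb from the end to 0.74%, 6.88% and 23.7%. On 3R it went from 24.7%, 44.1% and 19.2% to 16.6%, 32.6% and 15.0%. The same filter left 150 of 325 and 247 of 520 clusters at the arm ends (replicate 1, then replicate 2), 2 of 22 and 2 of 4 on the heterochromatic pieces and 18 of 52 and 5 of 14 on chromosome 4. In the combined list the shares were 39.2% at 2 to 3 Mb on 2L and 3L and 30.04%, 51.7% and 22.1% on 3R. The shared part of the covered length at the arm ends, 52.0% on 2L and 3L pooled and 58.1% on 3R, was 49.0% and 58.6% at or above the median score and 53.0% and 58.7% with clusters under 1 kb apart joined. On the heterochromatic pieces it was 12.9%, then 0% and 12.7%, and on chromosome 4 it was 8.72%, then 8.90% and 8.55%. Empty steps numbered 19 of 90 (21.1%, against 2.86% beyond 3 Mb), 33 of 90 at or above the median score (36.7% against 8.73%), 57 of 180 with 50-kb steps (31.7% against 9.34%) and 4 of 45 with 200-kb steps (8.89% against 0.30%). Places were compared within each replicate. Between ChIP and input, which share replicate numbers, no paired analysis was possible because the lists used hold called regions of the ChIP libraries alone. Depth is unknown. With 2 replicates, leaving 1 out cannot shift a mean by more than 1 SD, whatever the data. All values recomputed in that way therefore counted as unmoved, and their part of the 59 is no measure of stability. On chromosome 4 and the heterochromatic pieces, where the SD was about as wide as the mean, the replicates differed greatly even so.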

Other observations

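The combined list also went against single replicates at some of these places. On 2L it called a cluster from 22959367 to 22961392, over sequence that replicate 2 called depleted and replicate 1 called enriched. On chromosome 4 it called a depleted region from 946124 to 947679, over a cluster of replicate 2 that ran from 946284 to 947688. These places were chosen after their values were seen, and how the combined list was made is not given in the sources used here.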
